A study of Mus musculus with 2 samples.

Results

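The secondary and tertiary granule genes described here were Ltf, Camp, Ngp, Lcn2, Chil3, Cd177, Olfm4, Mmp8, Mmp9 and Retnlg, 10 of the 24014 genes counted in either of 2 single-cell libraries of mouse bone marrow. They were chosen by name, and all 10 were counted in both libraries. One library (HFD) came from the marrow of male wild-type C57B/6 mice fed a chow with 60% fat for 16 weeks, and the other (ND) from the marrow of male wild-type C57B/6 mice fed normal chow for 16 weeks. Both were made with the BD Rhapsody whole-transcriptome system, which captures single cells in microwells with barcoded beads and counts each captured mRNA once through a unique molecular identifier (UMI). The labels call the mice young and do not say how many animals stand behind a library. With 1 library per diet, no difference between the diets had a replicate check, and none was tested.

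Neutrophils mature in the marrow from promyelocytes, and they fill their granules in a fixed order. Azurophil (primary) granules are made first, specific (secondary) granules next and gelatinase (tertiary) granules last, so that a protein's granule follows from when its gene is on. Lactoferrin (Ltf), the cathelicidin Camp and lipocalin 2 (Lcn2) are standard secondary granule proteins, gelatinase B (Mmp9) is the standard tertiary one, and the transcription factor C/EBPε is known to be needed for the secondary granules of mice and humans.

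The 2 tables held 17282 HFD and 16817 ND cells, with 117773643 and 117999042 UMIs. After filters on genes and mitochondrial share and after doublet removal, 15214 HFD and 13890 ND cells were kept, with a median of 4076 and 4480 UMIs. The kept cells were clustered without the 10 genes, and clusters were named from other markers, so that the stages were not drawn on the values described below. These rebuilt names need not be those of the study. Clusters 4, 12 and 29 stayed unnamed, with 826, 240 and 899 HFD cells and 712, 238 and 706 ND cells. Cells outside the neutrophil stages are, below, those of the other named classes, without these unnamed clusters. Neutrophil progenitor-like cells numbered 533 in HFD and 484 in ND, immature neutrophil-like cells 1507 and 1144, and mature neutrophil-like cells 1429 and 811. Elane, Ly6g and Cxcr2 were among the markers that named the stages, so their levels describe the stages and do not check the names. Elane, an azurophil granule protease, had 9130 CPM (UMIs per 1000000 UMIs of the same cells) in HFD and 8607 CPM in ND progenitor-like cells. Ly6g had 1631 and 1833 CPM in immature-like cells and still 983 and 915 CPM in mature-like cells. Cxcr2, the receptor of marrow exit, had 4017 and 3571 CPM in mature-like cells. The surface antibody tag CD117, the stem cell factor receptor, had a median of 18 molecules per HFD cell and 24.5 per ND cell at the progenitor stage and of 0 in both libraries at the mature stage. The 2 libraries shared 329 cell indices, 1.9% of the HFD and 1.96% of the ND cells. Of the 250 shared indices kept in both, 22 carried the same class name, which is 8.8%, where the class shares alone give 7.70%.

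Along the neutrophil-like cells the genes peaked one after another, and 9 of the 10 peaked in the same cluster in both libraries. Olfm4 was the exception, with its highest level in cluster 17 in HFD (596 CPM, against 433 CPM in cluster 32) and in cluster 32 in ND (531 CPM, against 510 CPM in cluster 17). Clusters were set in the order 5 (progenitor-like), 16, 17 and 32 (immature-like), and 18 and 19 (mature-like), with clusters of one stage ordered by falling median UMIs. Within a gene, a cluster's CPM is given below as a percentage of that gene's CPM in its highest cluster of the same library.

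Camp, the antimicrobial cathelicidin, and Chil3, a chitinase-like lectin, peaked first. Camp was highest in cluster 16, at 18920 CPM in HFD and 20130 CPM in ND, and stood at 31.5% of that in HFD and 32.8% in ND by cluster 32. Chil3 was also highest in cluster 16, and its fall was steeper: in cluster 32 it held 11.4% of its peak in HFD and 11.7% in ND. Both genes were thus highest in the immature cluster nearest the progenitors, and in cluster 18 little was left, 4.05% of the Camp peak in HFD and 5.84% in ND.

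Ltf, Ngp, Lcn2 and Cd177 peaked next, in cluster 17. Ltf, the iron-binding lactoferrin, had 12602 CPM there in HFD and 12198 CPM in ND, and its level in cluster 16 was 52.1% and 50.4% of that. Ngp, a cystatin-like granule protein, was already at 81.9% of its peak in cluster 16 in HFD and 82.2% in ND. These genes separated on the way down. In cluster 18 Ltf held 3.79% of its peak in HFD and 6.09% in ND, Ngp 8.80% and 12.4%, Lcn2 32.9% and 33.0%, and Cd177 47.2% and 52.6%. Lcn2, which binds bacterial siderophores, and Cd177, a surface protein also stored in granules, therefore outlasted Ltf and Ngp in both libraries.

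The metalloproteinases came later. Mmp8, the neutrophil collagenase, had 0.236% of its peak in cluster 16 in HFD and 0.203% in ND, 35.5% and 35.9% in cluster 17, and its peak in cluster 32 in both libraries. Mmp9 had 1.85% of its peak in HFD and 1.89% in ND in cluster 16, and it also peaked in cluster 32. It then stayed high, with 68.8% and 69.7% of its peak in cluster 19, where Mmp8 had 27.6% and 30.2%. Retnlg, a resistin-like secreted protein, was the last: it had 7.06% of its peak in cluster 17 in HFD and 6.41% in ND, 67.1% and 66.4% in cluster 32, and its peak in cluster 18. In the progenitor-like cells the 10 genes stood between 0.0556% (Retnlg) and 5.46% (Camp) of their peaks in HFD and between 0.0234% (Mmp8) and 4.68% (Camp) in ND.

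**Figure D1:**
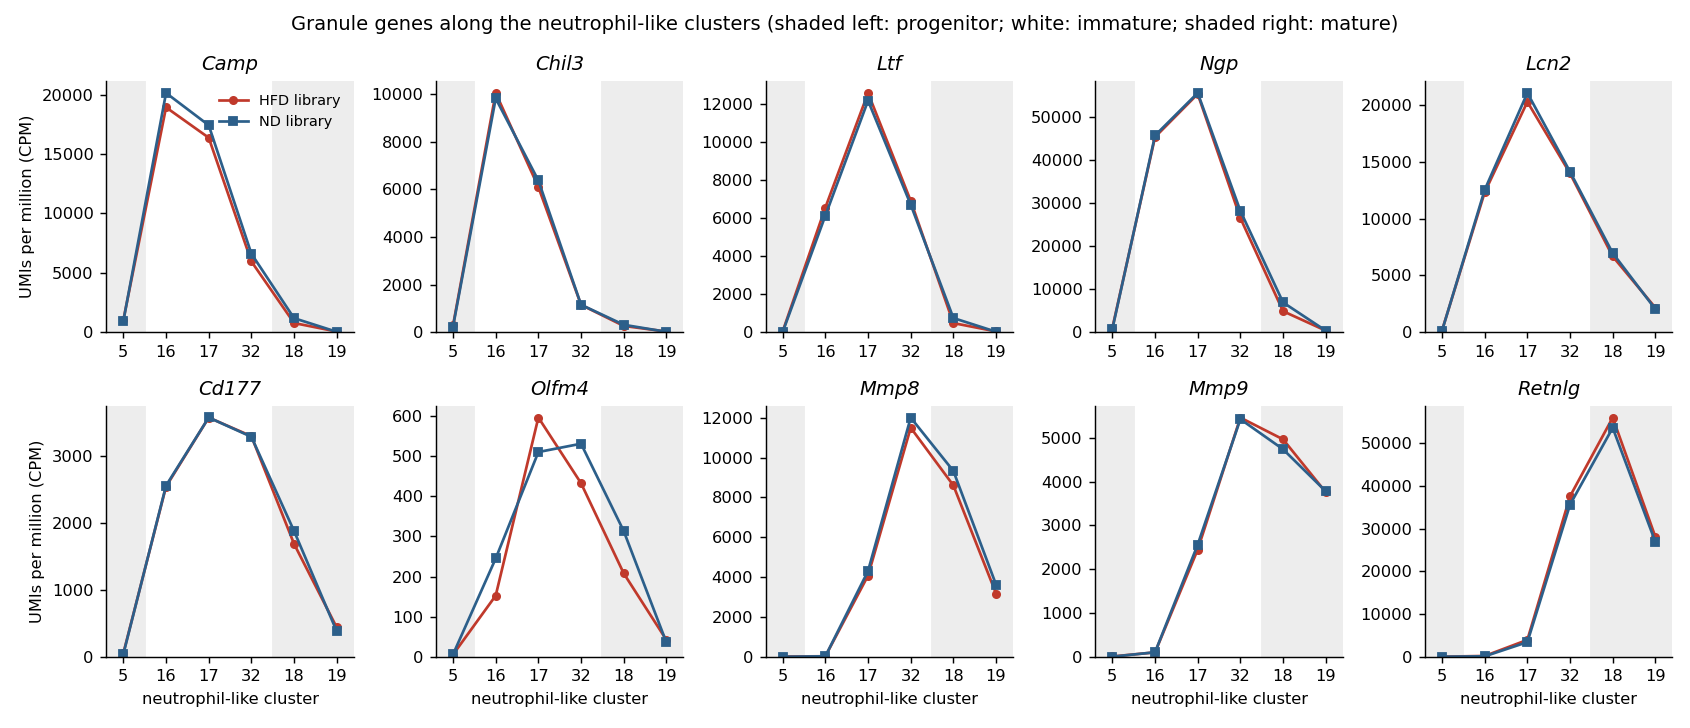
Level of each of the 10 genes (CPM, linear axis from 0) in the neutrophil-like clusters 5, 16, 17, 32, 18 and 19, in the HFD library (red circles) and the ND library (blue squares), with no error bars because each point is 1 library. Camp and Chil3 peak in cluster 16, Ltf, Ngp, Lcn2 and Cd177 in cluster 17, Mmp8 and Mmp9 in cluster 32 and Retnlg in cluster 18, in both libraries, while Olfm4 peaks in cluster 17 in HFD and in cluster 32 in ND.

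Promoters are shown for 5 of the genes so that early, middle and late members can be read side by side. They come from RefSeq (build GRCm38.p6), in which 9 of the 10 genes had a promoter entry. Each line gives the bases that start 250 before the annotated start, 5′ to 3′ on the gene's strand, without any bases that a GENCODE transcript of the gene covers. Capitals mark TTGCNNAA on either strand, a loose form of the word TTGCGCAA that C/EBP factors bind.
Chil3, chr3:106167565-106167814, minus strand: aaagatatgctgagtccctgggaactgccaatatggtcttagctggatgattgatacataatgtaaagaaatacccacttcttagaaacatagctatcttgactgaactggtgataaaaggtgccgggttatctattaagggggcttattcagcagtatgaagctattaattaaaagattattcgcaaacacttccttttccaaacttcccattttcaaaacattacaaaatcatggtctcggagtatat
Ngp, chr9:110419558-110419746, plus strand: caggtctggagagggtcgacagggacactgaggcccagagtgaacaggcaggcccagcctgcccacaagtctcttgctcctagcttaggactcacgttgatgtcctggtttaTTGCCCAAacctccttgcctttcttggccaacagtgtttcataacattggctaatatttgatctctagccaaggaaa
Ltf, chr9:111019042-111019270, plus strand: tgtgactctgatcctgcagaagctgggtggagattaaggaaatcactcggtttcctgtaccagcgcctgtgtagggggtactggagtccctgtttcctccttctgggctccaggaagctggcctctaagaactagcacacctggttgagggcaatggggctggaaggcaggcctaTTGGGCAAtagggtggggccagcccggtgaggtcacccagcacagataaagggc
Mmp8, chr9:7558179-7558428, plus strand: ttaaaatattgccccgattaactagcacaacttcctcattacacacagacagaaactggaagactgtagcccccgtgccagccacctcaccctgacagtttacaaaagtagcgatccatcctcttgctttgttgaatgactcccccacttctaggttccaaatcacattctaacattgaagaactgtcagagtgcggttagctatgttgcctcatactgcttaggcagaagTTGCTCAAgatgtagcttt
Retnlg, chr16:48872358-48872607, plus strand: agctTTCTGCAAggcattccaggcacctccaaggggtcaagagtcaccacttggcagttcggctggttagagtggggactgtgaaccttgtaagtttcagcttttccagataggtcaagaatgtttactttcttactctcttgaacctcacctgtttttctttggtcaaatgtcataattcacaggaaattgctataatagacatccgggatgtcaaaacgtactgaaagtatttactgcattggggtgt
Over the 250 bases before the start, TTGCNNAA on either strand was found in 5 of the 9 promoters (Lcn2, Mmp8, Ngp, Ltf and Retnlg) and in 9.55% of the promoters of all 27025 genes in the table. Ngp held it at 138 and again at 11 bases before the start, Ltf at 75, Mmp8 at 19, Lcn2 at 216 and Retnlg at 246. It was in genes that peaked in clusters 17, 32 and 18, and not in Camp and Chil3, which peaked in cluster 16, nor in Cd177 and Olfm4. Unlike the printed lines, these counts keep bases that a GENCODE transcript covers. Such a transcript held 329 bases ahead of the start in Lcn2, 161 in Camp, 61 in Ngp, 51 in Olfm4 and 21 in Ltf. The matches at 216 in Lcn2 and 11 in Ngp may thus lie in transcribed sequence. TTGCNNAA was one of 10 words searched, all on both strands, and it is shown because of its match. The exact C/EBP word TTGCGCAA, which TTGCNNAA includes, was in 0 of the 9 and 0.170% of all. The looser TTNNGNAA, which includes every match of TTGCNNAA, was in 8 of the 9 (all but Camp) and 36.9% of all, and the longer TTGCNNCAA was in 1 of the 9 (Olfm4) and 1.78% of all. The PU.1 core GAGGAA was in 5 of the 9 (Lcn2, Cd177, Mmp8, Ltf and Olfm4) and 23.1% of all. Its longer form GAGGAAGT was in 2 of the 9 (Mmp8 and Olfm4) and 2.44% of all. The word AGATAA of the erythroid GATA factor family was in 2 of the 9 (Chil3 and Ltf) and 10.3% of all. TATAAA was in 1 of the 9 (Cd177) and 12.97% of all. The AP-1 word TGANTCA was in 0 of the 9 and 6.87% of all, and an NF-κB word in 0 of the 9 and 0.0851% of all. The matches are letters in a window, not sites shown to be bound.

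In immature neutrophil-like cells, where most of these transcripts were found, the 10 genes had nearly the same level on both diets. The genes together took 111838 CPM in HFD and 113883 CPM in ND. Ltf had 9212 CPM in HFD and 8843 CPM in ND, a log2 ratio of HFD over ND of 0.06 with a 95% interval of 0.04 to 0.07. The intervals here and below are exact, rest on counting error alone and do not cover the spread between animals or libraries. Mmp8 had the ratio farthest from 0, with 4205 CPM in HFD and 4687 CPM in ND, a log2 ratio of -0.16 (interval -0.18 to -0.13). The median log2 ratio of the 10 genes was -0.04, against -0.0038 for all 8582 genes with at least 50 UMIs over both libraries. A gene is called here when it differs at least 1.5-fold between the libraries with at least 50 UMIs over both. None of the 10 was called at this stage, where 2.54% of all genes were called higher and 2.1% lower in HFD.

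**Figure D2:**
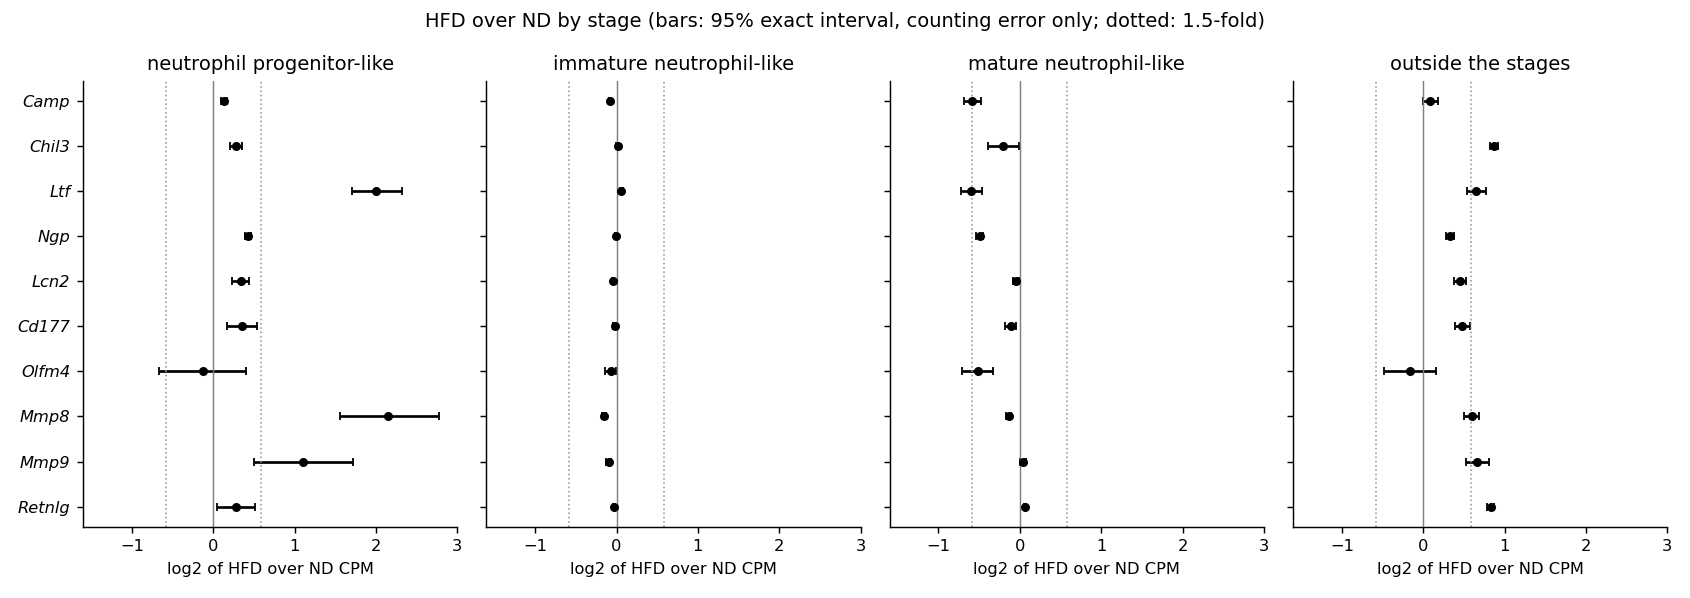
Log2 ratio of HFD over ND CPM for each gene in neutrophil progenitor-like, immature neutrophil-like and mature neutrophil-like cells and in the named classes outside these stages, with 95% exact intervals (counting error only) and dotted lines at 1.5-fold. The 10 genes lie between -0.16 and 0.06 in immature-like cells, whereas Ltf, Mmp8 and Mmp9 lie above 1 in progenitor-like cells and Ltf, Camp, Ngp and Olfm4 lie between -0.60 and -0.49 in mature-like cells.

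Within the immature stage, 2 genes differed more. In cluster 16 Retnlg, not yet on in most cells, had 192 CPM in HFD and 110 CPM in ND (567 and 248 UMIs), a log2 ratio of 0.81 (interval 0.59 to 1.03). That ratio rested on few cells: 297 of the 567 HFD UMIs lay in the 31 of 294 cells with Olfm4. In cells without Olfm4, Retnlg had 102 CPM in HFD and 118 CPM in ND. Olfm4 had 153 CPM in HFD and 245 CPM in ND in the same cluster (450 and 554 UMIs), a log2 ratio of -0.68 (interval -0.87 to -0.50). That ratio rested on few cells too: its UMIs lay in 31 of 294 HFD and 31 of 226 ND cells, with medians of 15 and 17. The interval does not cover the spread between such cells. Retnlg and Olfm4 were the only calls among the 10 genes in cluster 16, where 2.1% of all genes were called higher and 2.56% lower. Olfm4 went the other way in cluster 17, with 596 CPM in HFD and 510 CPM in ND (0.22, interval 0.13 to 0.32).

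At the progenitor stage each granule transcript was found in a minority of cells. At least 1 UMI of Lcn2 was found in 242 HFD and 188 ND cells, of Ngp in 238 and 160, of Chil3 in 206 and 144 and of Camp in 184 and 143. With 10 UMIs as the limit, Camp was in the most cells. At least 10 Camp UMIs were found in 97 of the 533 HFD cells (18.2%) and in 72 of the 484 ND cells (14.9%). Among the other genes, at least 10 UMIs of Ngp were found in 74 HFD and 49 ND cells, of Chil3 in 65 and 49, of Lcn2 in 43 and 34, of Cd177 in 19 and 16, and of Ltf in 12 and 2. The cells rich in Ltf or Ngp lay mostly within those rich in Camp. All 12 HFD and both of the 2 ND cells with at least 10 Ltf UMIs, and 69 of the 74 HFD and 47 of the 49 ND cells with at least 10 Ngp UMIs, also had at least 10 Camp UMIs, while 85 of the 97 HFD and 70 of the 72 ND cells rich in Camp had fewer than 10 of Ltf. Cells rich in the late genes were few: at least 10 Camp UMIs were found in 2 of the 6 HFD and 0 of the 4 ND cells with at least 10 Retnlg UMIs, and in 2 of the 3 HFD and 0 of the 1 ND cells with at least 10 Mmp9 UMIs. UMIs in a cell set how many genes can reach 10, and a gene with more UMIs reaches it earlier, so the order of counts is not an order of transcription start.

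The Camp-rich progenitor-like cells differed from those with no Camp UMI in other genes too. They had a median of 15956 UMIs in HFD and 16290.5 in ND, against 22426 and 21707 in cells with no Camp UMI. Fcnb, a ficolin of early neutrophil precursors, had 3593 CPM in HFD and 3268 CPM in ND in the Camp-rich cells, and 253 and 235 CPM in those without Camp. Cebpe, which encodes C/EBPε, had 235 CPM in HFD and 274 CPM in ND in the Camp-rich cells, against 97.0 and 89.997 CPM in those without. Elane was little different, at 8650 CPM in HFD and 8335 CPM in ND in the Camp-rich cells and 8771 and 8470 CPM in those without. Mpo, myeloperoxidase of the azurophil granules, had 8448 CPM in HFD and 8273 CPM in ND in the Camp-rich cells, against 11737 and 11484 CPM in those without. Both genes were highest in the 87 HFD and 71 ND cells with 1 to 9 Camp UMIs. Elane had 10897 and 9455 CPM there, and Mpo 12500 and 11870 CPM. The cells were split by a measured level, so the values are a description.

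Between the diets, Ltf, Mmp8 and Mmp9 were called higher in HFD progenitor-like cells, 3 of the 10 genes, where 1.53% of all genes were called higher and 1.84% lower. Ltf had 486 UMIs in HFD (42.4 CPM) and 109 UMIs in ND (10.6 CPM), a log2 ratio of 2.003 (interval 1.70 to 2.32). Mmp8 had 143 and 29 UMIs, a log2 ratio of 2.15 (interval 1.56 to 2.78), and Mmp9 had 81 and 34 UMIs, a log2 ratio of 1.10 (interval 0.50 to 1.72). All 3 rested on few cells. The 5 cells per library richest in each gene held 65.0% of Ltf UMIs in HFD and 38.5% in ND, 88.1% and 51.7% of Mmp8 UMIs, and 74.1% and 85.3% of Mmp9 UMIs. When every cell was thinned to 1000 UMIs, Ltf was seen in 1.88% of HFD and 2.27% of ND cells, and none of the 5 genes still over the minimum was called. The calls also depended on doublets and clustering. With doublets kept the Ltf ratio was 0.51 (interval 0.34 to 0.68), which is not called. The Mmp8 ratio was 0.07 at Leiden resolution 0.5 and 0.31 at 2.0, and the Mmp9 ratio 0.47 and 0.21, with 0.22 when the 10 genes entered the clustering, none of them called. Over all progenitor-like cells, some genes with more CPM at the next stage stood higher in HFD. Ly6g had 5.84 CPM in HFD and 1.26 CPM in ND, and S100a8 5410 and 4602 CPM. Fcnb, one of the progenitor markers, had 857 and 692 CPM. Other markers of the immature stage did not: Anxa1 had 353 CPM in HFD and 411 CPM in ND, and Serpinb1a 807 and 797 CPM. The 13 markers of immature neutrophils summed to 3960 and 3765 CPM. The part of these genes in the difference was not tested.

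The more abundant genes had smaller ratios in the clustering used here, though not in others. Camp had 1032 CPM in HFD and 941 CPM in ND (log2 ratio 0.13, interval 0.09 to 0.17), Ngp 990.5 and 736 CPM (0.43, interval 0.39 to 0.47), Chil3 284 and 234 CPM (0.28, interval 0.20 to 0.36) and Lcn2 157 and 124 CPM (0.34, interval 0.23 to 0.44). The Ngp ratio was 0.91 at Leiden resolution 0.5, 1.36 with the 10 genes in the clustering and 1.92 at resolution 2.0, and the Lcn2 ratio was 0.76 at resolution 0.5 and 1.04 at 2.0, all past 1.5-fold. These settings also changed which cells were named progenitor-like. The class held 1257 HFD and 1123 ND cells at resolution 0.5, and 500 and 451 with the 10 genes in the clustering. At 2.0 it took in a further cluster of 389 HFD and 313 ND cells. In thinned cells Camp was seen in 20.5% of HFD and 14.7% of ND cells. The median log2 ratio of the 10 genes was 0.35, against 0.01 for all 10000 genes over the minimum. Olfm4 alone was below 0, with 63 UMIs in HFD and 62 in ND and an interval of -0.66 to 0.40.

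In mature neutrophil-like cells, Ltf, Camp, Ngp and Olfm4 had log2 ratios between -0.60 and -0.49, while Lcn2, Mmp9 and Retnlg were near 0. Ltf had 292 CPM in HFD and 442 CPM in ND (1002 and 917 UMIs), a log2 ratio of -0.60 (interval -0.73 to -0.47), and it was the only one of the 10 called, where 4.79% of all genes were called lower and 2.79% higher. The Ltf ratio was -0.14 with doublets kept and -0.31 when the 10 genes entered the clustering, and Ltf was called under 8 of 13 other settings. These 13 include changes to the minimum of UMIs, which cannot alter the ratio of a single gene. Camp, with 465 and 697 CPM, stood just short of the 1.5-fold line at -0.58 (interval -0.69 to -0.48). Olfm4 had a log2 ratio of -0.52 (interval -0.71 to -0.33), and Ngp, with 2967 CPM in HFD and 4180 CPM in ND, of -0.49 (interval -0.54 to -0.45). Lcn2 was at -0.04, Mmp9 at 0.04 and Retnlg at 0.06. Retnlg, the bulk of the signal here, had 44159 CPM in HFD and 42429 CPM in ND, and the 10 genes together had 64877 and 65587 CPM.

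The difference lay in cluster 18, the earlier mature cluster. There the log2 ratio was -0.64 for Ltf (477 CPM in HFD and 743 CPM in ND, interval -0.77 to -0.51), -0.62 for Camp (767 and 1176 CPM) and -0.59 for Olfm4 (208 and 313 CPM), which made 3 of the 10 genes called lower, where 5.32% of all genes were called lower and 3.41% higher. Ngp had a median of 6 UMIs per HFD cell and 9.5 per ND cell. At least 10 UMIs of both Ngp and Retnlg were found in 33.7% of HFD and 49.2% of ND cells of cluster 18, and at least 10 of Retnlg but not of Ngp in 65.5% and 50%. In cluster 32 both genes were at 10 or more UMIs in 98.0% of HFD and 98.4% of ND cells, and in cluster 19 in 1.2% and 0.941%, shares so near their limits that they could hardly differ.

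Other readouts of cluster 18 cells also differed between the libraries. The median depth there was 2795 UMIs in HFD and 3005.5 in ND. The 13 markers of mature neutrophils, none of them among the 10 genes, summed to 11981 CPM in HFD and 10713 CPM in ND, and the 13 markers of immature neutrophils to 15212 and 16032 CPM. In thinned cells, which have equal depth, Camp was seen in 19.4% of HFD and 35.5% of ND cells and Ngp in 72.0% and 79.0%. The part of depth and of these markers in the lower Ltf, Camp and Olfm4 was not tested. In cluster 19 Ltf and Camp had log2 ratios of 0.89 and 0.90, on 56 and 75 UMIs in HFD and 18 and 24 in ND.

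**Figure D3:**
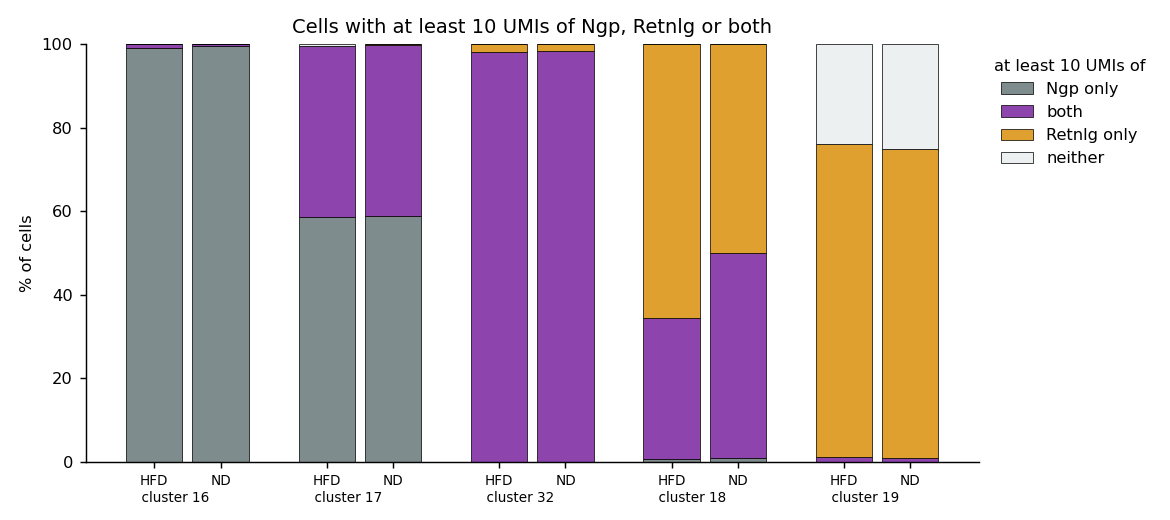
Share of cells (percent, stacked to 100) with at least 10 UMIs of Ngp only, of both Ngp and Retnlg, of Retnlg only or of neither, in the immature-like clusters 16, 17 and 32 and the mature-like clusters 18 and 19, HFD left of ND in each pair. In cluster 18, cells with Retnlg but not Ngp are 65.5% in HFD and 50% in ND.

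Olfm4, a secreted glycoprotein of specific granules known to mark only some neutrophils in mice and humans, was the one gene without a UMI in most cells of its peak stage. In clusters 17 and 32 as one, 85.5% of 1189 HFD cells and 87.0% of 915 ND cells had no Olfm4 UMI, while 11.1% and 11.1% had 10 or more. Between these lay few cells: 0.841% of HFD and 0.219% of ND cells had 1 to 3 UMIs. Cd177, which is known as a subset marker on human neutrophils, showed no such gap in these mouse cells. It was missing from 1 of the 1189 HFD and 1 of the 915 ND cells, and 81.2% and 83.8% had 10 or more.

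**Figure D4:**
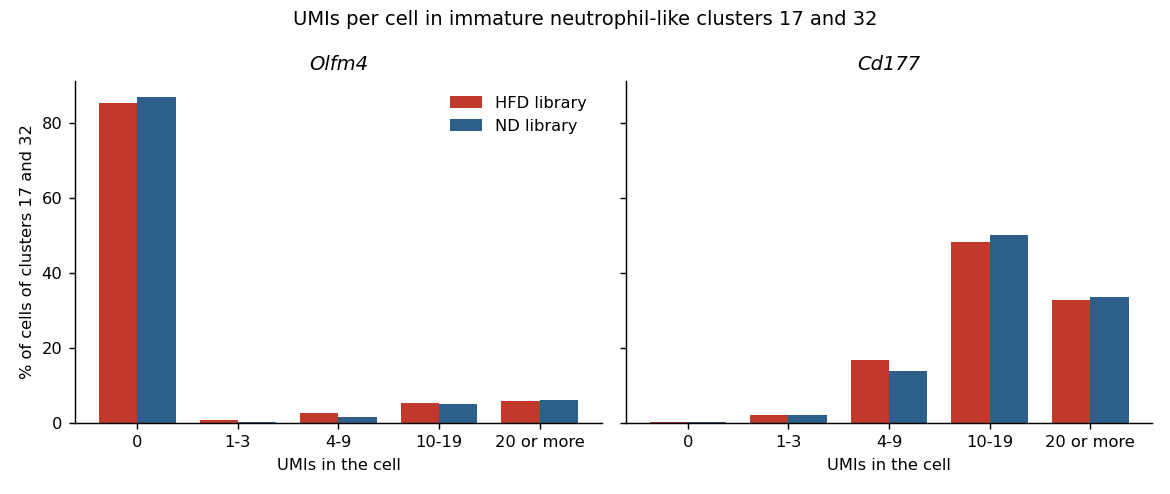
Percent of cells of clusters 17 and 32 with 0, 1 to 3, 4 to 9, 10 to 19 and 20 or more UMIs of Olfm4 (left) and Cd177 (right), HFD bars left of ND bars. Olfm4 is at 0 in 85.5% of HFD and 87.0% of ND cells with nearly none at 1 to 3 UMIs, while Cd177 has a single mode at 10 to 19 UMIs.

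Cells with Olfm4 were already present in the first immature cluster. Their share was 10.5% of HFD (95% exact interval 7.28% to 14.6%) and 13.7% of ND cells (9.51% to 18.9%) in cluster 16, 15.2% and 12.5% in cluster 17, 13.3% and 13.7% in cluster 32, 9.43% and 13.2% in cluster 18, and 3.73% and 3.76% in cluster 19. The intervals of the 2 libraries overlapped in every one of these clusters. Within HFD the interval of cluster 18 (7.33% to 11.9%) lay below that of cluster 17 (12.7% to 17.97%), while in ND they overlapped (9.998% to 17.004% and 9.82% to 15.6%). Cells with the gene held a median of 20 UMIs of it in HFD and 21 in ND in cluster 17, and of 1.5 in both libraries in cluster 19. Their depth was close: in cluster 17 those with Olfm4 had a median of 4885 UMIs in HFD and 5057 in ND, and those without 5142.5 and 5282.

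In clusters 17 and 32 the other 9 genes did not follow the Olfm4 split. In clusters 17 and 32, the log2 ratio of cells with Olfm4 over cells without it was between -0.41 and 0.24 over all 36 values, 9 genes in 2 clusters and 2 libraries, and 0 of the 36 passed 1.5-fold. In cluster 17 Ltf had 12499 CPM in HFD and 11931 CPM in ND in cells with Olfm4, against 12620 and 12234 CPM in cells without. The value farthest from 0 was that of Chil3 in cluster 32 of HFD, at 890 CPM with Olfm4 and 1183 CPM without, while ND had 1099.6 and 1159 CPM there. In these 2 clusters, cells with and without Olfm4 thus differed by less than 1.5-fold in each of the other granule genes, in both libraries. Some genes passed that line in other clusters. In cluster 16 the log2 ratio was 3.26 for Retnlg in HFD and -1.07 in ND. For Mmp8 it was 2.61 in HFD (33 UMIs with Olfm4 and 47 without) and -2.13 in ND (2 and 53 UMIs). In cluster 18 of ND it was 2.06 for Chil3.

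Over both libraries and all clusters of at least 30 cells, the genes whose log2(CPM + 1) followed the mean of the 10 most closely, among 11153 genes, were Itgb2l (r = 0.971), S100a9 (0.971), S100a8 (0.965), Ly6g (0.961) and Wfdc21 (0.957). The 60 points share libraries and cells of one lineage, so these are descriptions with no test. Some members were less close to that mean than these genes, with 0.848 for Chil3 and 0.843 for Retnlg. Itgb2l, Ly6g and Wfdc21 were among the markers that named the immature stage.

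Within the neutrophil-like stages, few other granule genes and none of their regulators were called between the diets. Of 25 other granule and secretory vesicle genes, 22 were over the minimum in progenitor-like cells and 2 were called higher in HFD, where 1.53% of all genes were. These were Mmp25 (42 UMIs in HFD and 19 in ND, log2 ratio 0.99), a membrane-bound metalloproteinase, and Chil1 (127 and 75 UMIs, 0.61), a chitinase-like protein. Lyz2, lysozyme, followed closely at 0.58, with 431 CPM in HFD and 289 CPM in ND. Slpi, a protease inhibitor, had 665 CPM in HFD and 806 CPM in ND at the immature stage (-0.28), and Lrg1, a granule glycoprotein, had 452 and 335 CPM at the mature stage (0.44). None of this list was called in immature-like (24 over the minimum) or mature-like cells (22 over the minimum), where 2.54% and 2.79% of all genes were called higher and 2.1% and 4.79% lower. Of 9 regulators, none was called at any stage. Cebpe itself had 257 CPM in both libraries at the immature stage, and 124 CPM in HFD and 117 CPM in ND at the progenitor stage. Cebpd, which encodes another C/EBP factor, was higher in HFD at each stage without reaching 1.5-fold, with log2 ratios of 0.44 in progenitor-like, 0.29 in immature-like and 0.28 in mature-like cells. Spi1, which encodes PU.1, had 648 CPM in HFD and 493 CPM in ND at the mature stage (0.40). Of 8 receptors, partners and inhibitors of the granule proteins, 4 were over the minimum in progenitor-like, 4 in immature-like and 3 in mature-like cells. Fpr2, a formyl peptide receptor, was the only one called at these stages, in progenitor-like cells on 48 UMIs in HFD and 20 in ND. Outside the stages, where 3.86% of all genes were called higher and 2.92% lower, several genes of these lists passed 1.5-fold. The log2 ratio was 0.89 for Cebpb (14644 UMIs in HFD and 8758 in ND), 0.70 for Spi1, 0.94 for Hp, the haptoglobin gene, 1.48 for Fpr1, 0.96 for Fpr2 and 0.65 for Slc11a1. Abca13 (0.88), Timp3 (0.77), Chil1 (0.75), Itgb2l (0.75), Lrp1 (0.73) and Plaur (0.69) were also called higher, and none was called lower. This pool mixes classes in different numbers. Monocyte-like cells were 1786 in HFD and 1022 in ND, and erythroid-like cells 825 and 1120. The part of this make-up in the ratios was not tested.

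Nearly all transcripts of the 10 genes in kept cells lay in neutrophil-like cells, from 98.5% of Camp UMIs in HFD and 98.2% in ND down to 86.6% and 88.8% of Chil3 UMIs. In the 9780 HFD and 9795 ND cells outside the stages, the genes stood between 0.158% (Camp) and 1.34% (Chil3) of their neutrophil peak in HFD and between 0.121% (Ltf) and 0.752% (Chil3) in ND. Cells that should lack them also had UMIs of these genes. Ngp was seen in 14.8% of HFD and 10.4% of ND T cell-like cells, with 3340 and 3401 median UMIs, and in 13.1% and 12.1% of B cell-like cells, with 2055 and 2186. In erythroid-like cells there were 1.65 Camp and 5.53 Ngp UMIs for each Ltf UMI in HFD and 1.63 and 5.41 in ND, close to the 1.75 and 5.11 in HFD and 1.94 and 5.36 in ND of the neutrophil-like cells.

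Monocyte-like cells departed from that mix. Chil3 made up 54.2% of their granule-gene UMIs in HFD and 57.4% in ND, against 4.85% and 4.89% in neutrophil-like cells, and Cd177 made up 11.6% and 16.4% and Mmp8 10.7% and 14.2%. These 3 genes were in cluster 13, led by Fn1, S100a4 and Ccr2, the chemokine receptor of classical monocytes. Chil3 was found there in 68.9% of HFD and 65.5% of ND cells with 1288 and 1034 CPM, Cd177 in 69.5% and 66.2%, and Mmp8 in 63.1% and 65.7%. In the other monocyte-like cluster, 24, led by Ace and Nr4a1 of nonclassical monocytes, Chil3 was found in 6.96% and 6.50% of cells. Between the diets the 3 genes in monocyte-like cells had log2 ratios of 0.09 (Chil3), -0.31 (Cd177) and -0.22 (Mmp8), and none of the 3 was called. The class held the clusters in different proportions, with 708 HFD and 545 ND cells in cluster 13 and 1078 and 477 in cluster 24. Within cluster 13 the log2 ratios were 0.32 for Chil3, -0.12 for Cd177 and -0.02 for Mmp8. Of the 9 genes over the minimum in monocyte-like cells, 5 were called higher in HFD and none lower, where 3.07% of all genes were called higher and 2.2% lower. These were Ltf (268 UMIs in HFD and 38 in ND, log2 ratio 2.10), Ngp (952 and 157 UMIs, 1.88), Camp (409 and 77 UMIs, 1.69), Mmp9 (137 and 34 UMIs, 1.29) and Lcn2 (712 and 196 UMIs, 1.15). The 1% of cells richest in Ltf held 77.6% of its UMIs in HFD and 39.5% in ND.

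Eosinophil-like cells held Retnlg and Ngp with little Camp. The 10 genes reached 5251 CPM in HFD and 3145 CPM in ND there, of which Retnlg made up 55.6% and 67.8% and Ngp 26.5% and 23.2%. Camp was only 1.98% and 0.6%, and Camp UMIs per Ltf UMI were 0.385 and 0.242. In cells thinned to 1000 UMIs, Ngp was seen in 37.8% of HFD and 29.2% of ND eosinophil-like cells and Retnlg in 33.6% and 27.8%, against 4.36% and 3.36% (Ngp) and 4.52% and 2.24% (Retnlg) of T cell-like cells. Of the 10 genes, 8 were called higher in HFD eosinophil-like cells, where 4.14% of all genes were called higher and 3.44% lower. The median depth also differed, at 1695.5 UMIs in HFD and 2523.5 in ND, and the 1% of cells richest in Camp held 79.5% and 62.5% of its UMIs, values whose part in the difference was not tested.

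Single genes stood out in further classes. Mmp9 made up 14.8% of the granule-gene UMIs of T cell-like cells in HFD and 29.4% in ND, against 2.17% and 4.90% in B cell-like cells. In NK cell-like cells it made up 13.1% and 24.3%. Mmp9 was found in 7.15% and 6.22% of T cell-like cells, against 1.22% and 1.13% of B cell-like cells. Lcn2 was found in 40.6% of HFD and 39.2% of ND cells of cluster 8, the basophil-like cluster led by Mcpt8 and Prss34, where the median depth was 9421 and 9462 UMIs. In thinned cells that became 8.13% and 5.16%, against 2.34% and 1.60% of T cell-like cells. Lcn2 UMIs were spread over these cells in ND, where no cell had more than 7, whereas 1 HFD cell had 205.

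**Figure D5:**
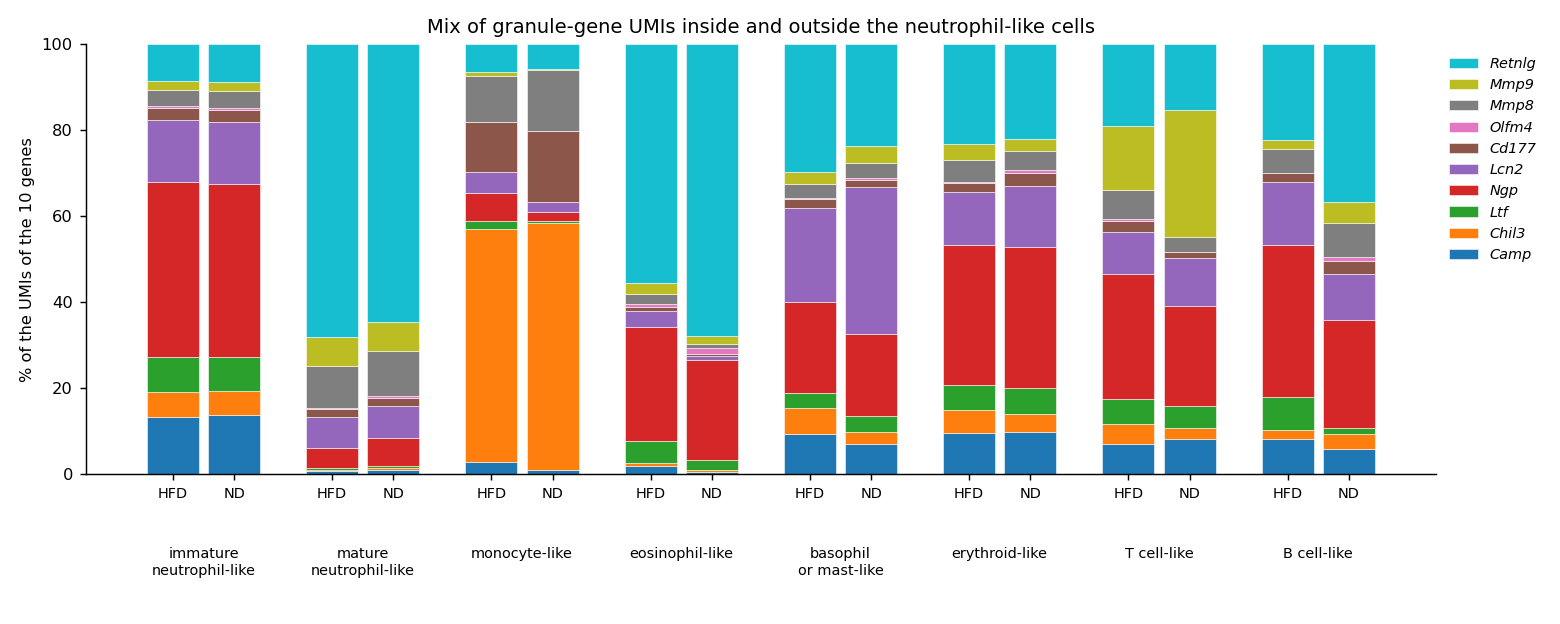
Makeup of the granule-gene UMIs (percent of the UMIs of the 10 genes, stacked to 100) in immature and mature neutrophil-like, monocyte-like, eosinophil-like, basophil or mast cell-like, erythroid-like, T cell-like and B cell-like cells, HFD left of ND. Chil3 fills 54.2% in HFD and 57.4% in ND of the monocyte-like bars and Retnlg 55.6% and 67.8% of the eosinophil-like bars, while Camp, Ngp and Ltf all appear in the erythroid-like bars.

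Outside the stages the level of granule genes was higher in HFD. The 10 genes summed to 612 CPM in HFD and 401 CPM in ND (40032 and 29087 UMIs), a log2 ratio of 0.61 (interval 0.59 to 0.63), and any of them was seen in 45.1% of HFD and 33.8% of ND cells, or in 20.8% and 14.5% after thinning. Chil3 (log2 ratio 0.86), Retnlg (0.83), Mmp9 (0.66), Ltf (0.65) and Mmp8 (0.59) were called higher, 5 of the 10 genes, where 3.86% of all genes were called higher and 2.92% lower, and Camp was at 0.09 and Olfm4 at -0.16. With doublets kept 2 of the 10 were called, and after thinning also 2. Of 16 named classes, 11 had a higher sum in HFD, 8 of them by at least 1.5-fold, and 3 had a sum at least 1.5-fold lower. Neutrophil-like cells were 22.8% of kept cells in HFD and 17.6% in ND, and all kept cells together held 11613 and 8765 CPM of the 10 genes, a log2 ratio of 0.41. Barcodes removed by the filter held 1662 and 1690 CPM. Chil3 outside the stages was mostly that of monocyte-like cells, with 7937 of 8788 UMIs in HFD and 4526 of 5343 in ND, and these cells numbered 1786 in HFD and 1022 in ND. The part of the neutrophil share and of the number of monocyte-like cells in the higher level was not tested.

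A few cells carried most of the Ltf, Camp and Ngp UMIs outside the stages. Of cells outside the stages, 67 in HFD (0.685%) and 47 in ND (0.480%) held at least 20 UMIs of Ltf, Camp and Ngp together, and these had 62.0% and 70.9% of the UMIs of the 3 genes they were picked on. Of the UMIs of all 10 genes they held 28.3% and 35.8%. Without them the median log2 ratio of the 10 genes outside the stages was 0.68, with 8 of the 10 called higher. The classes with lower sums in HFD were the plasma cell-like (539 CPM in HFD and 2571 CPM in ND), megakaryocyte-like (131 and 437 CPM) and stromal cell-like cells (494 and 10453 CPM). In ND, 1 cell held 1192 of the 4026 UMIs of the plasma cell-like class, 593 of the 814 of the megakaryocyte-like class and 542 of the 543 of the stromal cell-like class.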

How the data were processed

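The authors deposited 1 table of raw counts (UMIs per gene and cell) per library. Per the file headers, BD's WTA Rhapsody pipeline, version 1.9.1, wrote them. No source used here states the genome build or how doublets were treated before deposit. Cells with fewer than 200 genes or over 25% mitochondrial UMIs were removed (1632 HFD and 2515 ND), then Scrublet doublets (436 and 412). Cells were clustered in scanpy 1.11.5 (2000 variable genes, 30 components, 15 neighbours, Leiden resolution 1.0, 33 clusters) without the 10 genes and named from 13 markers per class. UMIs were summed per stage and library and scaled to CPM. Log2 ratios carry exact conditional binomial 95% intervals and shares exact Clopper-Pearson intervals, both for counting error only. No test was possible with 1 library per diet. Counts were simulated for 10000 genes of progenitor-like cells with counting error alone. Genes given a 2-fold change had a median log2 ratio of 1.01. Among genes left unchanged, 95.8% of intervals held the true value. The simulation had no spread between cells or libraries, so it does not cover genes held by a few rich cells. The genes named are all 10 granule genes, and of each other list up to 4 with the largest absolute ratio per stage; further genes were named as stage or cluster markers, and Fcnb, Mpo and Cebpe beside Camp after their values were seen. The members and lists were chosen with earlier results of these data known. Alternatives covered the cell filter, doublets, clustering, scaling, depth, the minimum of UMIs and single rich cells.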

Additional observations from a re-analysis of the deposited data

Results flagged for a closer look

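Ltf moved in opposite directions at the ends of the neutrophil-like stages. Its log2 ratio of HFD over ND was 2.003 in progenitor-like cells (486 UMIs in HFD and 109 in ND) and -0.598 in mature-like cells (1002 and 917 UMIs). It stands out because the same contrast has opposite signs in 2 stages, and the difference was not tested, since each stage has 1 library per diet. The 5 richest progenitor-like cells per library held 65.0% of the Ltf UMIs in HFD and 38.5% in ND. With doublets kept the progenitor-like ratio was 0.51 (interval 0.34 to 0.68) and the mature-like ratio -0.14, neither of them past 1.5-fold.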

How the results depend on the processing

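Of 16 other settings, 3 of them chosen after seeing the data, 13 could be run for the median log2 ratio of the 10 genes in progenitor-like and in mature-like cells and 14 in immature-like cells and outside the stages, and the direction held under each of these. It ranged from 0.26 to 0.56 in progenitor-like, from -0.04 to -0.01 in immature-like, from -0.21 to -0.11 in mature-like cells and from 0.35 to 0.68 outside the stages. Over all neutrophil-like cells the median of 0.08 became -0.074 as a mean over cells, -0.082 after thinning to 1000 UMIs and -0.037 with the stages weighted alike, so no direction is given there. Of single-gene values, 203 of 690 moved by more than their counting interval and none that was called changed sign. Changes to the minimum of UMIs are counted in these 690 and in the 13 settings, yet they cannot alter the ratio of a single gene. Ltf ranged from -1.04 to -0.14 in mature-like cells and was called there under 8 of 13 settings, but not with no cell filter, doublets kept, Leiden resolution 2.0, clustering with the 10 genes or median-of-ratios size factors, and the cause was not tested. In progenitor-like cells Ltf ranged from 0.51 to 3.08, Mmp8 from 0.07 to 2.15, Mmp9 from 0.04 to 1.17, Ngp from 0.28 to 1.92 and Lcn2 from 0.09 to 1.04. The other clusterings changed which cells were named progenitor-like. Outside the stages 2 genes were called with doublets kept or after thinning, and 8 without the 1% of cells richest in the genes. No paired analysis was possible because each diet has 1 library. Depth limits the early and late edges, where a gene has few UMIs per cell.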
